A study of Mus musculus with 84 samples.

Results

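Methidathion (MT), an organophosphate pesticide (OPP), was compared with the unexposed diet in the livers of 14 male B6C3F1 mice, 7 fed MT at 100 ppm and 7 control mice at 0 ppm, out of 84 mice in 12 groups. Feeding of the control or MT diet, in AIN-93G, began at 8 weeks of age and lasted 7 days. The members were taken by treatment label, 7 labelled MT100ppm and 7 labelled Con0ppm. The animal experiment ran in blocks, and both groups had 2 mice in block 1, 3 in block 3 and 2 in block 4. In both groups the U.S. EPA isolated the RNA of 2 mice, 1 in block 3 and 1 in block 4, and Expression Analysis Genomic Services (EA) that of the other 5. The remaining groups, MT at 10, 25 and 50 ppm and the groups of 2 other OPPs, enter below only through the common fit or as the lower MT doses. Each liver sample was a piece of several lobes of 1 mouse, and mice were housed in groups, with cages not named in the labels, so p-values measure the spread between mice as if each had been exposed on its own.

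Organophosphates inhibit acetylcholinesterase, the enzyme that ends cholinergic signalling, after the liver has converted thiophosphate compounds such as MT to their oxon forms. Cytochrome P450 enzymes carry out that oxidation and also detoxify the compounds, together with paraoxonases, carboxylesterases and glutathione S-transferases. Many hepatic P450 genes of the Cyp2b, Cyp2c and Cyp3a subfamilies are transcribed under the nuclear receptors CAR (Nr1i3) and PXR (Nr1i2), which respond to foreign compounds, and in mouse liver Cyp2b10 and Cyp2c29 are widely used as readouts of CAR and Cyp3a11 of PXR.

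Transcripts were counted by TempO-Seq, a targeted assay that reads out each gene through short probe pairs joined on its mRNA. Total counts were 9840552 to 13326762 per control mouse and 10702658 to 13229973 per MT mouse, and each library's median correlation with the other 13 lay between 0.971 and 0.986 over the tested genes. Levels are given as CPM, counts scaled to a common depth with TMM-corrected library sizes, on which 3 counts correspond to 0.221 to 0.319 CPM, a limit for counting error only. The 4 EPA libraries had 12631 to 12906 genes with at least 3 counts and the 10 EA libraries 11848 to 12231. Levels of the 13 hepatocyte markers together were 57717 to 74338 CPM in control mice and 55441 to 68176 CPM in MT mice, so all 14 samples had hepatocyte transcripts at high level.

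At MT 100 ppm few genes were called in the fit over all mice, and P450 genes led them. The number called does not give the number of genes that changed. Of 10415 tested genes (median count above 8 over all mice), 8 were called at an adjusted p under 0.05 (0.0768%), 7 higher and 1 lower than control, and 5 of them (0.048%) differed at least 2-fold. Here a gene is called by the edgeR fit over all mice unless another fit is named. These 5 were Cyp2c29, Cyp2c55, Cyp2c50, Cyp3a11 and Cyp2c54, all higher and all P450 genes. Without adjustment for multiple testing, 665 genes (6.39%) were higher and 757 (7.27%) lower at p under 0.05, and the median log2 fold change over all tested genes was -0.01. The count depended on which mice shared the fit, with 138 genes called and 17 of them at least 2-fold when only control and MT mice entered, 4 and 3 when only the 14 mice entered, and 5 to 25 when 1 mouse was left out. The plot of fold change against level shows the same picture, with the 5 P450 genes above the 2-fold line and a group of uncalled genes with large negative values.

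**Figure D1:**
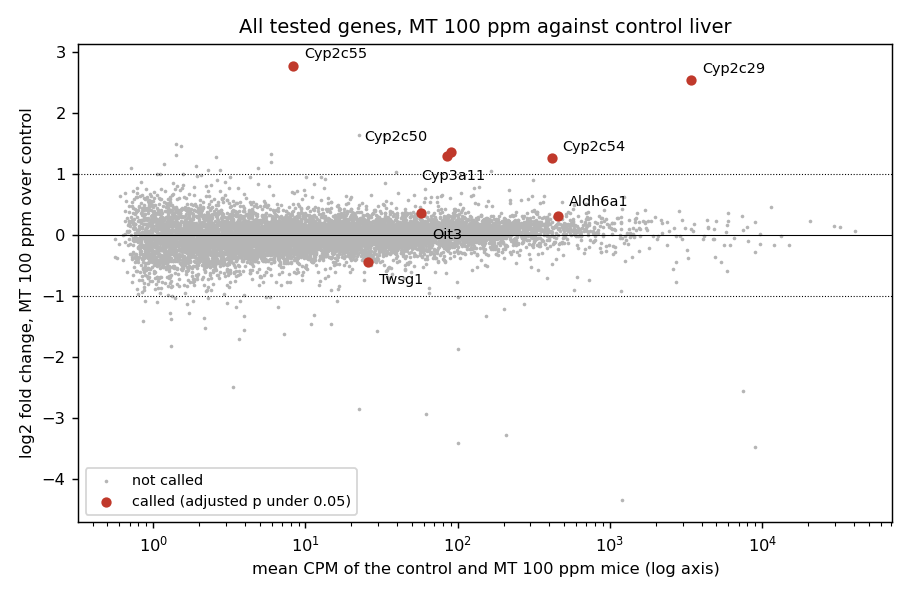
Log2 fold change at MT 100 ppm over control (y axis) against the mean CPM of the 14 mice (log x axis) for the 10415 tested genes, each a point, with called genes in red and dotted lines at 2-fold. The 5 highest red points, from Cyp2c54 at 1.26 to Cyp2c55 at 2.77, lie above the upper dotted line, and the lowest point, Lcn2 at -4.35, is grey, that is, not called.

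The 5 called P450 genes and Cyp2b10, which the filter on low counts had left out, were all higher in the MT mice. The 250 bases before the annotated start are shown, from RefSeq on GRCm38.p6, for 5 of these 6 genes, as no promoter entry was available for Cyp2c54. They run 5′ to 3′ in the direction of the gene, in lower case, with capitals marking matches on either strand to AGGTCA, the consensus half-site of nuclear receptors, or to AGTTCA, a variant of it. The positions were chr19:39286835-39287084 (plus strand) for Cyp2c29, chr19:39006769-39007018 (plus strand) for Cyp2c55, chr19:40089429-40089678 (plus strand) for Cyp2c50, chr5:145879855-145880104 (minus strand) for Cyp3a11 and chr7:25897408-25897657 (plus strand) for Cyp2b10.
Cyp2c29: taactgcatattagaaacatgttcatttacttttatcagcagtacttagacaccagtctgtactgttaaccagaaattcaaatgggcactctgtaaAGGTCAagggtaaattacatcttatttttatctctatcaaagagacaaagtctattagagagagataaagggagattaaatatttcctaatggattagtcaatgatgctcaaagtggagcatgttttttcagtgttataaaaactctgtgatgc
Cyp2c55: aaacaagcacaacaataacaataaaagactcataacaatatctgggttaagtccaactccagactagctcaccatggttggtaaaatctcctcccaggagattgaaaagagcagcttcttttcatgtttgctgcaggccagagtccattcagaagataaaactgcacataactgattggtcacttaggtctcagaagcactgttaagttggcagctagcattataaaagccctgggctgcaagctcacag
Cyp2c50: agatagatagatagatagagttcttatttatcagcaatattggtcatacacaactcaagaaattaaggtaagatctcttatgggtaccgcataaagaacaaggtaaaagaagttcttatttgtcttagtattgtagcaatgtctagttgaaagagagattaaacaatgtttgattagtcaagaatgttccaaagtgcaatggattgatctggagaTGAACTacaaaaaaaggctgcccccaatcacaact
Cyp3a11: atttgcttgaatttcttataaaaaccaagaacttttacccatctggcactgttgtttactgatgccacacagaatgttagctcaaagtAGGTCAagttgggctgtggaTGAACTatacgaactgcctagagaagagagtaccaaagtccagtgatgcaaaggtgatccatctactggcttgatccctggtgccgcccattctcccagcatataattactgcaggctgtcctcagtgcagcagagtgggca
Cyp2b10: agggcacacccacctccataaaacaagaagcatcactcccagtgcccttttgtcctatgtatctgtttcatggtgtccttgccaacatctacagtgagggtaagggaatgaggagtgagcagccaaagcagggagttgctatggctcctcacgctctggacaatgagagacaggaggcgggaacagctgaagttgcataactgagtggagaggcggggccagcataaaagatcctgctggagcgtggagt

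AGGTCA occurred once in the Cyp2c29 window, starting 154 bases before the start, and once in that of Cyp3a11, at 162 bases, where AGTTCA followed on the other strand at 142 bases. Cyp2c50 held AGTTCA on the other strand at 35 bases before the start, and neither motif was found in the windows of Cyp2c55 and Cyp2b10. Of all 32851 promoter windows of this length, 14.02% held AGGTCA and 11.8% held AGTTCA. The TATAAA box was present in Cyp2c29 at 19 bases, in Cyp2c55 at 29 bases and in Cyp3a11 at 234 bases before the start, against 12.4% of all windows, and no match overlapped another. These matches describe letters in a short window and do not mark bound sites.

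Cyp2c29 (chr19:39257849-39319157 in GRCm39, the mm39 assembly), an epoxygenase and a member of the arachidonic acid metabolising Cyp2c enzymes, had levels of 582 (lowest), 1013 (median) and 1558 CPM (highest) in the control mice and of 3508, 6017 and 7390.5 CPM in the MT mice. The groups did not overlap, with the lowest MT mouse above the highest control mouse. The mean was 992 ± 308 CPM (SD, n = 7) in control and 5860.5 ± 1372 CPM (SD, n = 7) in MT mice, a log2 fold change of 2.54 (SE 0.213, adjusted p = 5.80e-15, edgeR) or 5.82-fold.

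Cyp2c55 (chr19:38995462-39031144), a Cyp2c enzyme known mostly from the intestine, was at 0.778, 1.84 and 3.76 CPM in control and at 7.26, 15.6 and 22.1 CPM in MT mice. Its log2 fold change of 2.77 (SE 0.278, adjusted p = 1.31e-11) was the largest of any tested gene, on low counts of 10 to 45 per control mouse and 89 to 245 per MT mouse. All 7 MT mice lay above all control mice, and the means were 2.14 ± 1.11 and 14.4 ± 4.94 CPM (SD, n = 7 each).

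Cyp2c54 (chr19:40025117-40062282) and Cyp2c50 (chr19:40078085-40102430), neighbouring epoxygenase genes of the same cluster, were higher by less. Cyp2c54 was at 164, 237 and 309.7 CPM in control mice and at 381, 639.7 and 734 CPM in MT mice, a log2 fold change of 1.26 (SE 0.218, adjusted p = 5.94e-04). For Cyp2c50 the levels were 13.5, 48.3 and 71.7 CPM in control and 90.8, 137 and 147 CPM in MT mice, a log2 fold change of 1.36 (SE 0.268, adjusted p = 0.00575). Neither gene's groups overlapped, and the lowest value of Cyp2c50, in control replicate 1, stood well below the other 6 control mice, the next of which was at 36.5 CPM.

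Cyp3a11 (chr5:145791236-145816867), the principal drug-metabolising Cyp3a enzyme of mouse liver, was at 21.7, 41.4 and 74.2 CPM in control and at 86.5, 119 and 169 CPM in MT mice. The groups were again apart, with means of 49.1 ± 20.4 and 119.9 ± 28.2 CPM (SD, n = 7 each) and a log2 fold change of 1.29 (SE 0.243, adjusted p = 0.00280). An exact permutation test, two-sided, on the mean log2(CPM + 1) with labels exchanged only within the 5 combinations of block and isolator, gave p = 0.00694 for each of these 5 genes, the smallest that its 288 arrangements allow. The genes had been called on the same labels and their groups did not overlap, so this p was set by their selection and takes no account of the other tested genes.

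Cyp2b10 (chr7:25597045-25626049), the classical CAR target, had a median count of 1 over all mice and so was not among the tested genes, although every MT mouse had more than every control mouse. Control mice had 0 to 2 counts of it, 0, 0.0842 and 0.167 CPM (lowest, median, highest), and MT mice 6 to 294 counts, 0.490, 5.88 and 26.5 CPM. Summed over the 7 mice, 6 counts in control stood against 660 in MT liver, a ratio of 111 with an exact 95% interval of 50.9 to 305 that covers counting error only. The 2 block 1 mice were the lowest of the MT mice, at 0.490 and 1.22 CPM, and EPA-isolated replicate 6 of block 4 the highest. In the fit with no filter on low counts, in which 8 of 17683 genes (0.0452%) were called, its log2 fold change was 6.65 (SE 0.835, adjusted p = 7.01e-08), a value that depends on the prior count since controls were at the floor. The exact permutation test, added for these low genes after their values were seen, gave p = 0.00694, again the smallest possible and set by the separation for which the gene is shown.

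**Figure D2:**
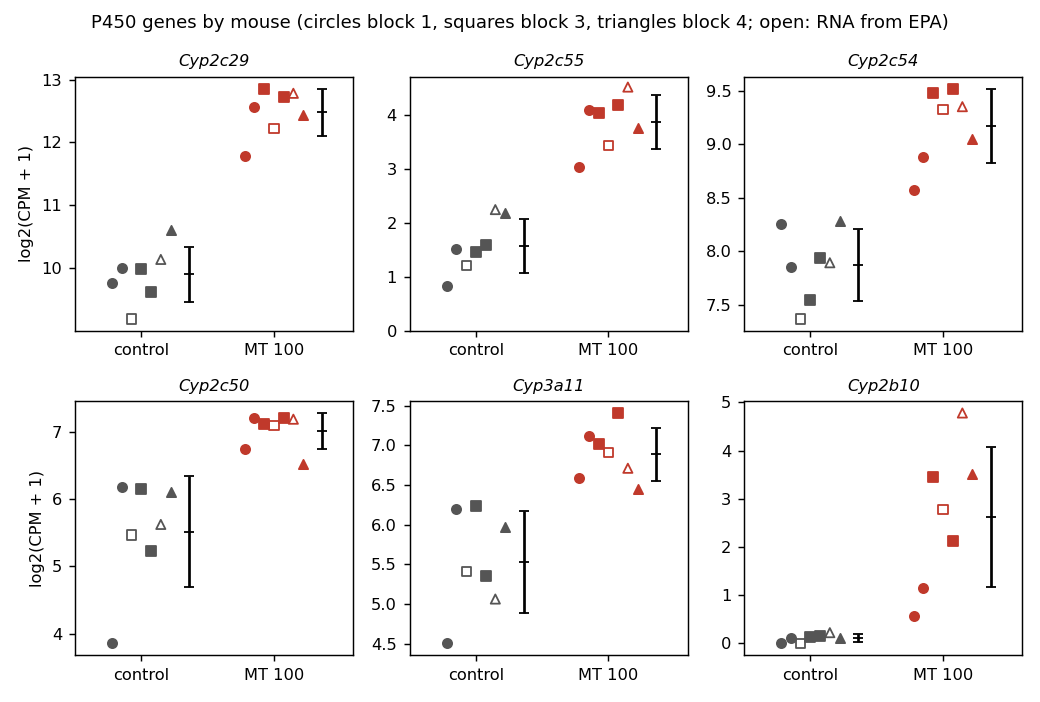
Level of 6 P450 genes as log2(CPM + 1) (y axis, range set for each gene) in each control (grey) and MT 100 ppm mouse (red), with the mean and SD (n = 7) beside each group. Circles are block 1, squares block 3 and triangles block 4, open symbols RNA isolated at EPA, and in all 6 panels the 7 red points lie above the 7 grey ones.

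The other 2 genes called with no filter but with a median count of 8 or less were of uncertain standing. With a different filter on low counts (filterByExpr), 10 of 11216 genes were called, among them Cyp2b10 and Trat1 but not Cyp2c53-ps. Cyp2c53-ps, a pseudogene that overlaps Cyp2c29 on chromosome 19, had 0 to 2 counts in control and 3 to 12 in MT mice, a ratio of summed counts of 11.6 (exact 95% interval 4.25 to 44.5). Of the 50-base words in its transcript 9.61% also occur in Cyp2c29, and reads of the abundant gene cannot be told apart from its own there. Whether its probe lies in such a stretch was not examined. Trat1, which encodes an adaptor of the T cell receptor complex, was lower, with 2 to 452 counts in control and 0 to 5 in MT mice and a log2 fold change of -5.13 (SE 1.03, adjusted p = 0.0097). Its control level was uneven, since both block 1 control mice, at 0.156 and 0.307 CPM, lay within the range of the MT mice and the other 5 control mice, at 1.95 to 33.3 CPM, above it. The permutation p of Trat1, chosen on the same labels, was 0.0347, and the summed T and NK cell markers overlapped, at 5.89 to 13.6 CPM in control and 5.31 to 8.29 CPM in MT mice.

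Separation of the 2 groups mouse by mouse was rare outside the P450 genes. Of all tested genes, 6 (0.0576%) had every MT mouse above every control mouse, and all 6 were P450 genes, the 5 above and Cyp3a16. In the other direction 4 genes (0.0384%) had every MT mouse below every control mouse, named here after their values were seen and none of them called. They were Col4a1, a basement membrane collagen, with a log2 fold change of -0.45 (SE 0.118, adjusted p = 0.0748), Myh9, nonmuscle myosin, with -0.30, Ppp1r14a, an inhibitor of myosin phosphatase, with -0.77, and Ankrd9 with -0.58. For a single gene, full separation in either direction has a two-sided exact permutation p of 5.83e-04 over the 3432 arrangements of the labels without strata. How many of the tested genes would separate in either direction with the labels exchanged at random was not tested.

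The 3 other called genes differed by less than 2-fold and their groups overlapped. Aldh6a1, methylmalonate semialdehyde dehydrogenase of valine breakdown, rose from 410.3 ± 46.6 to 506 ± 38.9 CPM (SD, n = 7 each), a log2 fold change of 0.30 (SE 0.0672, adjusted p = 0.0346). Oit3, a gene of liver sinusoidal endothelial cells, rose from 50.8 ± 10.1 to 64.1 ± 6.15 CPM, a log2 fold change of 0.35 (SE 0.0781, adjusted p = 0.0346). The 11 tested markers of these cells, Oit3 among them, had a median log2 fold change of 0.07, with 7 above 0 and 4 below. Twsg1, a secreted modulator of BMP signalling, fell from 29.8 ± 7.57 to 22.02 ± 5.91 CPM, a log2 fold change of -0.45 (SE 0.0999, adjusted p = 0.0346). All 7 MT mice were above the control median for Aldh6a1 and Oit3, and 5 of 7 below it for Twsg1. With 1 mouse left out in turn, Aldh6a1 kept its call in 5, Oit3 in 6 and Twsg1 in 8 of the 14 fits, whereas the 5 P450 genes kept theirs in all 14.

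Across the Cyp2c subfamily, which oxidises fatty acids, steroids and drugs, all 11 tested members had a log2 fold change above 0 (10 of 11 without block 3, where Cyp2c23 was at -0.017), although within blocks 1, 3 and 4 taken alone 8, 10 and 11 members were above 0, with a median log2 fold change of 0.72 against -0.01 over all tested genes. Of them 4 were called, the ones above (0.0768% of all tested genes were). At an unadjusted p of 0.05, 7 were higher (6.39% of all tested genes were) and none lower (7.27%). The members not called ranged from Cyp2c70 at 0.23 (SE 0.207) to Cyp2c37 at 0.77 (SE 0.272, adjusted p = 0.183). Cyp2c67 was at 0.63 (SE 0.212, adjusted p = 0.162, and 0.0347 with control and MT mice alone), Cyp2c39 at 0.72 (SE 0.421, adjusted p = 0.443) and Cyp2c68 at 0.36 (SE 0.164, adjusted p = 0.304). Of the 4 listed members with a median count of 8 or less, Cyp2c65 and Cyp2c66 had no count in control mice and at most 4 and 1 in MT mice, and Cyp2c38 and Cyp2c69 overlapped between the groups.

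The members of the cluster on chromosome 19 are similar in sequence, and the authors' E/M counting can divide a read among them. Of the 50-base words in a gene's transcripts, 53.95% in Cyp2c69, 48.4% in Cyp2c67, 46.6% in Cyp2c40 and 40.8% in Cyp2c68 also occurred in another P450 gene considered here. The share was 26% in Cyp2c37, 14.8% in Cyp2c50, 11.2% in Cyp2c54, 4.59% in Cyp2c29 and 0 in Cyp2c55. Words were taken over whole transcripts while the assay reads only probe sites, so these shares do not give the part of reads that was divided. How uncertain each gene is on its own was not measured. Counts of Cyp2c55 were within 0.01 of a whole number in all 84 mice, while those of Cyp2c50 were further from one in 83 of 84.

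In the Cyp3a subfamily, whose members oxidise steroids and a wide range of drugs, 7 genes were tested, with a median log2 fold change of 0.61. Cyp3a11 was called (0.0768% of all tested genes were), and at an unadjusted p of 0.05 5 members including it were higher (6.39% of all tested genes were) and 1 was lower (7.27%). Cyp3a16 was at 0.79 (SE 0.258, adjusted p = 0.147), with levels of 0.780 to 1.85 CPM in control and 1.96 to 2.83 CPM in MT mice. Cyp3a41a and Cyp3a41b were both at 0.61 (SE 0.184, adjusted p = 0.116) and are near copies, with 93.7% of the words of the first found in the second, so they count as 1 measurement and the higher members as 4. Cyp3a11 shared 12.5% of its words with other P450 genes considered here (5.38% with Cyp3a41a), and Cyp3a16 10.5% (6.13% with Cyp3a11). Reads can therefore be divided among these genes too, and they are not fully separate measurements. With control and MT mice alone in the fit, Cyp3a16, Cyp3a41a and Cyp3a41b were called too (adjusted p = 0.0485, 0.0418 and 0.0417). Cyp3a25 was at 0.37 (SE 0.168, adjusted p = 0.307), Cyp3a59 at -0.06 (SE 0.314) and Cyp3a13 at -0.45 (SE 0.222, adjusted p = 0.36). Cyp3a16, Cyp3a41a and Cyp3a41b also head the list of female-biased liver genes, of which 11 of 12 tested members were above 0 (48.28% of all tested genes were). These 3 were the only members of that list at an unadjusted p of 0.05. The list therefore partly repeats the Cyp3a result, and it counts the near copies Cyp3a41a and Cyp3a41b as separate genes. The median of that list was 0.49 (0.18 without block 3, with 8 of 12 above 0). Male-biased liver genes showed no opposite shift, with 10 of 21 tested members above 0, 11 below and a median of -0.02.

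Of the 4 listed Cyp2b genes none passed the filter. Cyp2b9, Cyp2b13 and Cyp2b23 had at most 1, 0 and 0 counts in control mice and 2, 4 and 3 in MT mice, all at about the floor, which leaves Cyp2b10 as the member with a measurable level. Cyp2b10 shared 7.17% of its words with Cyp2b13.

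Lower MT doses, which were compared with the same control mice, showed intermediate levels of several of these genes. Mean Cyp2c29 was 1384 ± 385 CPM at 10 ppm, 1625 ± 306 CPM at 25 ppm and 2449 ± 587 CPM at 50 ppm (SD, n = 7 each), with log2 fold changes over control of 0.44, 0.69 and 1.28, of which only the last passed the test (adjusted p = 4.02e-04). Cyp2c55 was at 3.81, 3.51 and 4.90 CPM, Cyp2c54 at 267, 336 and 384 CPM and Cyp2c50 at 76.7, 80.7 and 98.7 CPM in the same order, with none called. Cyp3a11 did not follow the dose, at 87.9 ± 20.4, 51.4 ± 24.3 and 84.9 ± 27.3 CPM. Cyp2b10 counts were 0 to 1 per mouse at 10 ppm, 0 to 7 at 25 ppm and 0 to 32 at 50 ppm.

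Tested directly, MT 100 ppm against MT 50 ppm called 3 of 10415 genes (0.0288%). RNA of all MT 50 ppm mice was isolated by EA, while that of MT 100 ppm replicates 4 and 6 was isolated by EPA. Unlike the comparison with control, this contrast was therefore not balanced by isolator and rests in part on the isolator term of the fit. Cyp2c29 was higher at 100 ppm by a log2 fold change of 1.27 (SE 0.209, adjusted p = 5.40e-04) and Cyp2c55 by 1.55 (SE 0.264, adjusted p = 5.95e-04). Prkg1, a cGMP-dependent protein kinase named here because it was called, had a log2 fold change of -0.74 (SE 0.154, adjusted p = 0.0287) on 24 to 75 counts per mouse at 100 ppm. Its level at 100 ppm was 5.88 and 6.49 CPM in EPA-isolated replicates 4 and 6 and 2.13 to 3.35 CPM in the EA-isolated mice. Differences of 0.58 (SE 0.220) for Cyp2c54, 0.59 (SE 0.246) for Cyp3a11 and 0.39 (SE 0.271) for Cyp2c50 did not pass the adjusted test. The plot by dose shows the step from MT 50 ppm to MT 100 ppm in Cyp2c29, Cyp2c55 and Cyp2b10 beside the flatter course of Cyp2c50 and the uneven one of Cyp3a11.

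**Figure D3:**
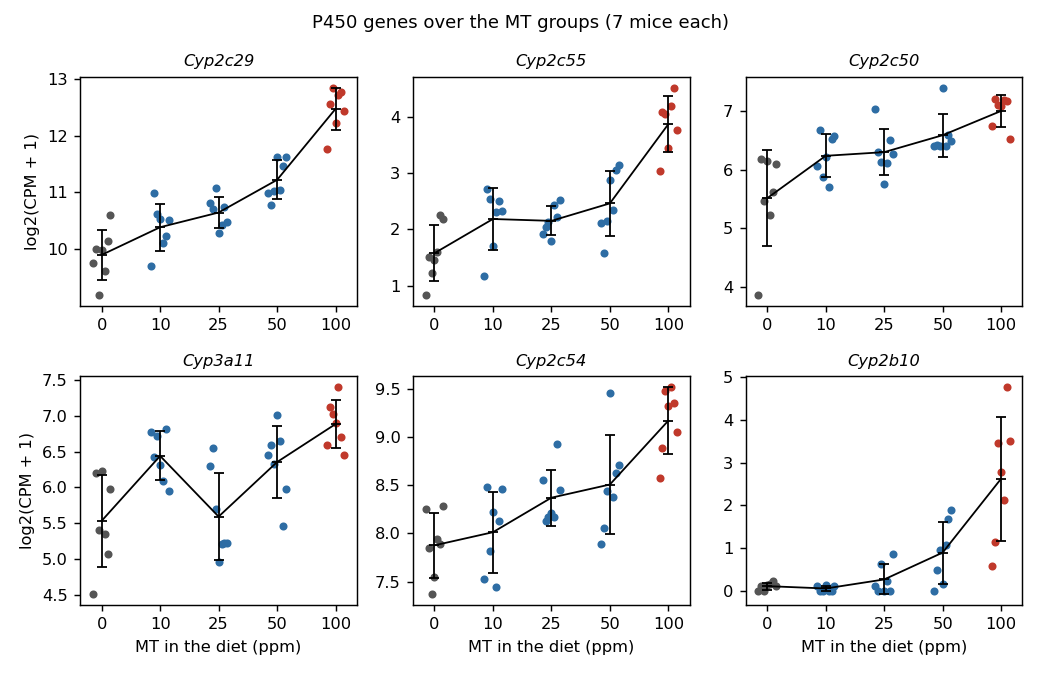
Level of 6 P450 genes as log2(CPM + 1) (y axis, range set for each gene) in each mouse of the control (0) and MT groups, with doses in ppm evenly spaced on the x axis and black lines joining group means, with SD (n = 7). Mean Cyp2c29 steps up at each dose, from 992 CPM in control to 5860.5 CPM at 100 ppm, while Cyp2b10 stays at 0 to 1 count per mouse at 10 ppm and has 6 to 294 counts at 100 ppm.

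Within blocks the differences of these 6 P450 genes kept their direction but varied in size. The difference in mean log2(CPM + 1) between MT and control mice of block 1, block 3 and block 4 was 2.29, 3.00 and 2.24 for Cyp2c29, 2.40, 2.48 and 1.93 for Cyp2c55, and 1.504, 1.45 and 1.06 for Cyp3a11. It was 0.68, 1.82 and 1.12 for Cyp2c54 and 1.96, 1.52 and 0.99 for Cyp2c50, and for Cyp2b10 it was 0.81 in block 1, 2.69 in block 3 and 3.97 in block 4. Between EA mice alone and EPA mice alone the differences were 2.48 and 2.84 for Cyp2c29 and 1.13 and 1.71 for Cyp2c54. Fitted on EA mice alone only Cyp2c29 and Cyp2c55 of these 5 were called, and fitted on the 14 mice without the other groups Cyp3a11 and Cyp2c50 lost their calls. Without block 3 the same 2 genes, Cyp2c29 and Cyp2c55, were called and no other gene was, and without block 4 Cyp2c50 was not called.

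Receptors and partners of the P450 system showed no called gene in the edgeR fit over all mice. Nr1i3, which encodes CAR, was at 0.57 (SE 0.228, adjusted p = 0.239) and Nr1i2, which encodes PXR, at -0.08 (SE 0.113), both named outside the naming rule. Nr1i3 was higher in the MT mice of blocks 3 and 4 but not of block 1, at 297 and 311 CPM against 326 and 320 CPM in control mice. Among the 24 receptors and cofactors, 3 were higher and 4 lower at an unadjusted p of 0.05 (6.39% and 7.27% of all tested genes were). They were led by Nr1h4, the bile acid receptor FXR, at 0.37 (SE 0.102, adjusted p = 0.0934, and under 0.05 with DESeq2, with control and MT mice alone and without block 1). Cebpb, a transcription factor of the acute phase, was at -0.78 (SE 0.249, adjusted p = 0.143). In block 1 it went the other way, at 105 and 120 CPM in MT and 80.9 and 93.4 CPM in control mice. Por, the reductase that supplies P450 enzymes with electrons, was at 0.10 (SE 0.300) and Alas1, the first enzyme of heme synthesis, at 0.38 (SE 0.622), both also outside the rule and with wide errors.

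Known CAR and PXR target genes outside the P450 families had a small median difference. Of 28 tested, none was called by edgeR over all mice, and 4 were higher and 1 lower at an unadjusted p of 0.05 (6.39% and 7.27% of all tested genes were). The log2 fold change was above 0 in 20 of the 28 (48.28% of all tested genes), and its median was 0.17 (0.098 without MT replicate 2). Ugt1a1, which glucuronidates bilirubin, was nearest to a call at 0.43 (SE 0.102, adjusted p = 0.0615), with 747, 884 and 1736 CPM in control and 1081, 1265 and 1768 CPM in MT mice, so the groups overlapped. It was called in 6 of 30 alternatives, among them DESeq2, control and MT mice alone and without block 1, with a lowest adjusted p of 0.00719. Ces2a, a carboxylesterase, was at 0.47 (SE 0.125, adjusted p = 0.0795, and called with DESeq2 and with control and MT mice alone, lowest adjusted p = 0.0317), Slco1a4, an uptake transporter of organic anions, at 0.92 (SE 0.290, adjusted p = 0.138), Abcc3, an export pump, at 0.58 (SE 0.256, adjusted p = 0.29) and Aldh1a7, an aldehyde dehydrogenase, at -0.39 (SE 0.131, adjusted p = 0.164).

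Esterases that bind or hydrolyse organophosphates were not called by edgeR over all mice either. Of 13 tested carboxylesterases, which are stoichiometric scavengers of oxons, 3 were higher and 1 lower at an unadjusted p of 0.05 (6.39% and 7.27% of all tested genes were). Their median was 0.18 (0.035 without block 3, and 0.12 without control replicate 3). With control and MT mice alone, Ces1d and Ces1c were called as well as Ces2a (adjusted p = 0.0465 for Ces1d and 0.0405 for Ces1c). Ces1d was at 1.03 (SE 0.304, adjusted p = 0.109), with 11.3, 26.1 and 44.6 CPM in control and 24.6, 50.5 and 75.3 CPM in MT mice, Ces1c, a carboxylesterase secreted into plasma, at 0.36 (SE 0.139, adjusted p = 0.224) and Ces4a at -0.86 (SE 0.406, adjusted p = 0.33). Ache, the target of these pesticides in nerve and muscle, had only 0 to 13 counts in control and 1 to 8 in MT mice, and its difference was not detectable at this depth (log2 fold change -0.48, SE 0.447, adjusted p = 0.705 with no filter). Bche, butyrylcholinesterase made by hepatocytes, was at 0.11 (SE 0.103, adjusted p = 0.673) and Pon1, the paraoxonase that hydrolyses oxons, at 0.22 (SE 0.145, adjusted p = 0.5). Among the 19 tested cholinesterases, paraoxonases and other serine hydrolases, Bphl at 0.34 (SE 0.149) and Pon2 at -0.29 (SE 0.132) passed an unadjusted p of 0.05 (6.39% of all tested genes were higher and 7.27% lower).

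Medians of the conjugating enzymes lay slightly above 0 in the fit over all mice, with none called there by edgeR (Ugt1a1 was in the alternatives named above). The median log2 fold change was 0.25 over 18 glutathione S-transferases, 0.16 over 16 glucuronosyltransferases and 0.22 over 10 sulfotransferases, and without block 3 it was 0.036, 0.032 and -0.033. Gsta3 was at 0.40 (SE 0.147, adjusted p = 0.207), Gsto1 at 0.40 (SE 0.142, adjusted p = 0.185), Ugt2a3 at 0.38 (SE 0.128, adjusted p = 0.162) and Sult1a1 at 0.49 (SE 0.159, adjusted p = 0.146). Ugdh, which supplies the glucuronic acid donor, was at -0.33 (SE 0.125, adjusted p = 0.21). Among other P450 genes, Cyp2a12 was at 0.40 (SE 0.110, adjusted p = 0.0934, and 0.0234 at its lowest, called with DESeq2 and with control and MT mice alone), Cyp2d10 at 0.30 (SE 0.111) and Cyp4a32, a fatty acid hydroxylase, at 0.80 (SE 0.362, adjusted p = 0.306). Targets of the other stress receptors stayed near the median of all genes, at -0.04 over 18 NRF2 targets and -0.10 over the 3 tested AHR targets (0.039 without block 3).

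**Figure D4:**
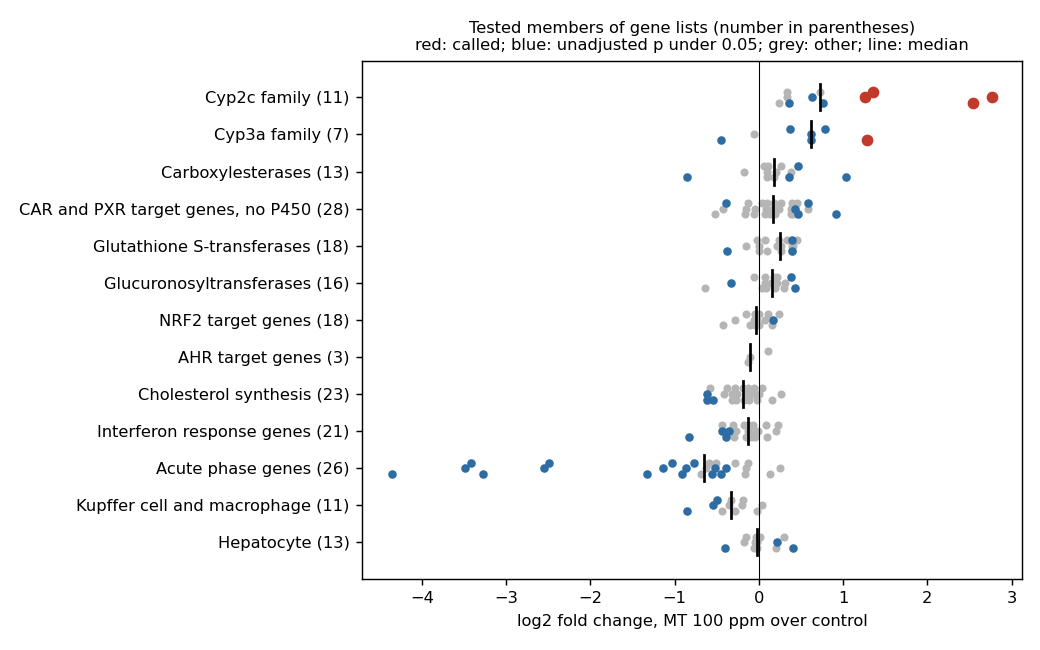
Log2 fold change at MT 100 ppm over control (x axis) of the tested members of 13 gene lists (rows, with the number tested), red where called, blue where the unadjusted p was under 0.05 and grey otherwise, with a black line at each median. Red points occur only in the Cyp2c and Cyp3a rows of these 13, and the acute phase row has the lowest median, -0.66.

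Acute phase genes, whose products the liver secretes into plasma in response to inflammatory cytokines, were lower in MT mice on average, yet none was called by edgeR over all mice. With DESeq2 Lcn2 was called (adjusted p = 0.0282), and with control and MT mice alone Orm3 was (adjusted p = 0.0350). Of 26 tested, 24 had a log2 fold change below 0, 16 were lower and 0 higher at an unadjusted p of 0.05 (7.27% of all tested genes were lower), and the median was -0.66. Lcn2, which encodes the iron-siderophore binding lipocalin, was at -4.35 (SE 1.52, adjusted p = 0.176), Orm3, an orosomucoid, at -2.49 (SE 0.781, adjusted p = 0.136), Apcs, serum amyloid P, at -1.14 (SE 0.371, adjusted p = 0.146) and Steap4, a metalloreductase, at -1.04 (SE 0.343, adjusted p = 0.153).

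The spread lay in the control mice. Lcn2 was at 10.7, 759.7 and 7567 CPM in control (lowest, median, highest) and at 14.8, 28.7 and 169 CPM in MT mice. Control replicates 3 and 5 of block 3 held the highest values, 6580.1 and 7567 CPM, while the control mice of block 1, at 10.7 and 91.3 CPM, were within or near the range of the MT mice. Summed over the 26 genes, the list was at 154927, 107368 and 162468 CPM in the 3 control mice of block 3 and 101179 CPM in the EPA-isolated control mouse of block 4, against 41856 to 61938 CPM in the other 3 control mice and 42861 to 61249 CPM in all 7 MT mice. The 4 control mice with the high values, and by a narrow margin replicate 2 of block 1, were therefore above every MT mouse and the remaining 2 were not.

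Within blocks the median difference over the 26 genes was 0.11 in block 1, -1.36 in block 3 and -0.02 in block 4, with 11, 25 and 14 of the 26 below 0. Without block 3 the fitted median was -0.06. Markers of macrophages also differed by block, with a median over 11 tested genes of -0.33 in the fit, 0.30 in block 1, -0.72 in block 3 and -0.24 in block 4, and -0.014 in the fit without block 3, and their summed level was 186 to 373 CPM in control and 177 to 253 CPM in MT mice, with none of the 13 at 0. Markers of neutrophils and monocytes had a median of -0.68 (4 tested of 10 present) and summed levels of 9.47 to 31.6 CPM in control and 7.61 to 15.2 CPM in MT mice, and the 5 tested erythroid markers a median of -0.56, which was 0.38 in block 1, -1.13 in block 3 and 0.12 in the fit without block 3. In liver homogenate fewer cells of a type and less RNA per cell cannot be told apart, and the part of these cells in the acute phase values was not tested.

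**Figure D5:**
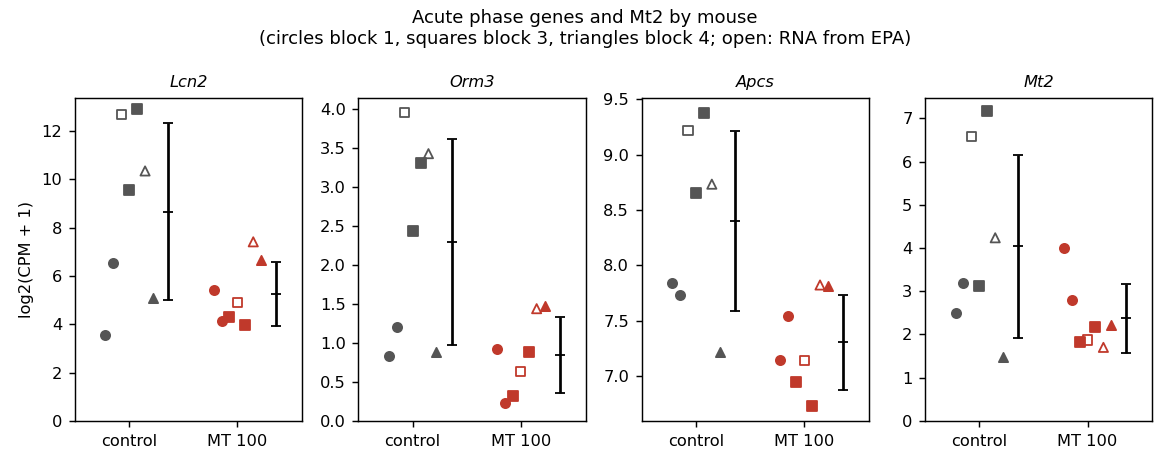
Level of 3 acute phase genes and Mt2 as log2(CPM + 1) (y axis, range set for each gene) in each control (grey) and MT 100 ppm mouse (red), with the mean and SD (n = 7). Circles are block 1, squares block 3, triangles block 4 and open symbols RNA isolated at EPA. For Lcn2, Orm3 and Apcs the 4 highest control mice are the grey squares and the open grey triangle, up to 7567 CPM for Lcn2, while for Mt2 1 grey square, at 7.71 CPM, lies in the range of the red points.

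Mt2 and Mt1, metallothioneins that bind zinc and respond to glucocorticoids and inflammation, also had an uneven level in control mice. Mt2 was at 1.77, 8.14 and 144 CPM in control and 2.25, 3.54 and 14.9 CPM in MT mice, a log2 fold change of -2.86 (SE 1.24, adjusted p = 0.285), and Mt1 had -1.08 (SE 0.493, adjusted p = 0.305), with control replicates 3 and 6, at 11.7 and 8.43 CPM, above the highest MT mouse at 5.22 CPM and the other 5 control mice not. For Mt2 the 2 highest control values, 94.8 and 144 CPM, came from the 2 mice that were highest for Lcn2.

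Cholesterol synthesis and interferon response genes had small negative medians that rested on some of the blocks. Of 23 tested genes of cholesterol synthesis, 19 were below 0, with a median of -0.18, and 3 were lower at an unadjusted p of 0.05 (7.27% of all tested genes were). The median was -0.56 within block 1, -0.14 within block 3 and -0.0078 within block 4, and the fitted one was -0.0082 without block 1 and -0.097 without control replicate 1. The 3 were Dhcr7, the last enzyme of the pathway, at -0.55 (SE 0.193, adjusted p = 0.178), Nsdhl at -0.62 (SE 0.244, adjusted p = 0.237) and Sqle, squalene epoxidase, at -0.62 (SE 0.289, adjusted p = 0.319). Of 21 interferon response genes 17 were below 0, with a median of -0.12, but within block 4 17 of 21 were above 0 (median 0.19), and the fitted median was -0.0089 without block 3 and -0.066 without MT replicate 2. Among them were Oas1a, an antiviral oligoadenylate synthetase, at -0.82 (SE 0.264, adjusted p = 0.143) and Ifit2 at -0.44 (SE 0.156, adjusted p = 0.183). In the edgeR fit over all mice, 2 of the 37 pathway lists held a called gene, those of the Cyp2c and Cyp3a subfamilies.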

How the data were processed

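Liver RNA of 84 mice was profiled with the TempO-Seq mouse whole transcriptome assay. After trimming, the authors used STAR for alignment to mm39 and Partek E/M to estimate counts per gene of Ensembl release 106, and the deposited estimated counts were not normalized. Of them 10.8% lay more than 0.01 from a whole number, and all were rounded here. Values adjusted by the authors for block and RNA isolator were also deposited and were not used here. Counts were fitted with edgeR 4.0.16 (R 4.3.3; quasi-likelihood test, TMM) over all mice with group, block and isolator, for the 10415 of 17695 genes with a median count above 8, with Benjamini-Hochberg adjustment. Genes were called at an adjusted p under 0.05. In simulated data of 10415 genes for MT 100 ppm against control, it called 99 of 100 genes changed 4-fold, 90 of 100 changed 2-fold and 16 of 10215 unchanged genes. These rates belong to the simulated data, and the rates in the counts of the mice themselves were not tested. DESeq2 1.42.0, limma 3.58.1 and other scalings, filters, covariates and samples served as alternatives, and Python 3.11.15 with scipy 1.17.1 for permutation tests. GENCODE on GRCm39 named 17660 genes. Genes named in the text are those called, members of the Cyp2b, Cyp2c and Cyp3a families, up to 4 members of each pathway list with the smallest p, and Ache and Bche. Genes with a median count of 8 or less that were called in the fit with no filter are named too. Members and lists were chosen with earlier results of these data known. Counts of 3 per library served as the floor, for counting error only.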

Additional observations from a re-analysis of the deposited data

Results flagged for a closer look

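Among the called genes, the 3 low-count genes and 4 acute phase genes, 30 groups of 7 mice were examined for a mouse far from the others, and chance alone marks about 1 group in 20. The one marked was Cyp2b10 in the MT 100 ppm group, where replicate 6 (block 4, RNA isolated at EPA) stood at 26.5 CPM and the next mouse at 10.4 CPM, a gap of 0.619 of the group's range, above Dixon's critical value for 7 mice. The other 6 MT mice lay between 0.490 and 10.4 CPM, all above the highest control mouse at 0.167 CPM.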

How the results depend on the processing

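The number of genes called at MT 100 ppm, 8 in the report, was 60 with DESeq2, 138 when only control and MT mice entered the fit, 15 without block 1, 5 with no covariates or with block alone, 4 with the 14 mice or the EA mice alone and 2 without block 3. With the 2-fold limit, 5 in the report, it was 8 with no filter, 17 with control and MT mice alone, 3 with the 14 mice alone and 2 with EA mice alone or without block 3. Leaving out 1 mouse gave 5 to 25 genes, and 5 to 6 with the limit, with 25 without control replicate 2. All 5 P450 genes stayed higher in each of the 30 alternatives, and Cyp2c55 had no adjusted p in DESeq2, which set 3837 genes aside. Among the named genes, changes of sign were limited to Alas1 (-0.16 without block 1), Bche (-0.050 without block 3), Cyp2c23 (-0.017 without block 3), Nr1i2 (0.017 without block 4), Por (-0.0066 without block 1, -0.021 without block 4, and -0.022 to 0.21 with 1 mouse left out) and Cyp3a59 (0.099 with EA mice alone, 0.031 without block 3, and -0.27 to 0.096 with 1 mouse left out). Only some of the lists were followed over the alternatives. Among these, the medians that changed sign were those of erythroid markers (0.12 without block 3), sulfotransferases (-0.033 without block 3), AHR targets (0.039 without block 3, -0.19 to 0.046 with 1 mouse left out) and NRF2 targets (0.013 without block 4, -0.055 to 0.012 with 1 mouse left out). The cause of these shifts was not tested. Depth limits the low genes, where 3 counts are 0.221 to 0.319 CPM. No paired analysis was possible because the labels tie no control mouse to an MT mouse, and replicate numbers were given here in accession order.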
